A study of Mus musculus with 8 samples.

Results

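The G1 cyclins, their kinases, the inhibitors p27 and p57, and Myc were described across 4 groups of mouse primary hepatocytes. The members were the rows of the deposited table whose gene name is Ccnd1, Ccnd2, Ccnd3, Ccne1, Ccne2, Cdk4, Cdk6, Cdkn1b, Cdkn1c or Myc. All 10 were found among 56748 genes, and all 10 were among the 14279 genes that passed the filter on low counts, although Cdkn1c passed it only through its counts in the knockout libraries.

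Gene expression was measured by RNA-seq of hepatocytes cultured on collagen-coated polyacrylamide hydrogels of 1 kPa (soft) or 20 kPa (stiff), to compare mechanical conditions modelled on healthy and diseased liver. The donor animals were C57BL/6J mice with floxed alleles of both genes (Yap fl/fl; Taz fl/fl), in a line that the study's methods also describe as carrying a ROSA26-LSL-tdTomato reporter. Mice of 7 to 8 weeks were injected with AAV8-TBG-Cre to give the knockout (KO) or with AAV8-TBG-Null to give the wild type (WT), so that the WT cells also carried unrecombined floxed alleles and had been exposed to a virus. The TBG promoter drives Cre in hepatocytes and not in other liver cells. Hepatocytes were isolated 10 days later and collected after 24 h of culture, and each of the 4 groups holds 2 libraries. The sources give the sex of the mice as both female and male, while Xist was counted 4818 to 8443 times per library and Ddx3y, Uty, Kdm5d and Eif2s3y were at 0 counts in all 8 libraries. Nothing states that the 2 libraries of a group came from separate mice, so the p-values measure the spread between libraries, which may be technical.

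Progression from G1 into S phase is set by cyclins and the kinases they activate. The D-type cyclins bind CDK4 and CDK6 and begin the phosphorylation of the retinoblastoma protein, the E-type cyclins act later with CDK2, and E2F transcription factors released from the retinoblastoma protein then switch on genes of DNA replication. The inhibitors p27 (Cdkn1b) and p57 (Cdkn1c) bind cyclin-kinase complexes, and Myc, a transcription factor that pairs with Max on E-box sequences, promotes growth and cell cycle entry. Hepatocytes of the adult liver rest outside the cycle and re-enter it after loss of liver tissue, a setting in which induction of cyclin D1 is a well-known step.

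The libraries held 18324083 to 26442310 counts each with TMM factors from 0.978 to 1.02. The limit that a count of 0 allows, 3 counts, was 0.116 to 0.167 CPM, which covers counting error only. The targeted genes were lower in every KO library than in every WT library. Yap1, which encodes YAP, was at 95.5 to 140 CPM in the WT and 28.4 to 31.8 CPM in the KO libraries, and Wwtr1, which encodes TAZ, was at 41.5 to 65.2 and 13.7 to 16.6 CPM. These counts cover whole genes, so exons outside the deleted part are included.

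RefSeq promoter windows of GRCm38.p6, from 250 bases before to 50 bases after the start of a gene, were given for 5 of the 10 members (Ccnd3, Ccne1, Cdk4, Cdk6 and Cdkn1b, with 6 windows because Ccnd3 has a second start). Ccnd1, Ccnd2, Ccne2, Cdkn1c and Myc had no entry. Both strands were searched for the E-box CACGTG bound by Myc and Max, which reads the same on both strands, for the TEAD motif GGAATG through which YAP and TAZ reach DNA, for the E2F motif in its forms TTTCGCGC, TTTGGCGC, TTTCCCGC and TTTGCCGC, and for the AP-1 motif TGANTCA. Of 32851 promoter windows, 7.15% held the E-box, 14.7% the TEAD motif, 2.26% an E2F form and 7.81% the AP-1 motif. The upstream 250 bases are shown for the 3 windows that held a match, 5′ to 3′ on the strand of the gene, because Cdk4, Cdk6 and Ccnd3 were among the 7 members that were higher in both WT stiff libraries than in every other library. Capitals mark the matched bases, and no match overlapped another.
Cdk4: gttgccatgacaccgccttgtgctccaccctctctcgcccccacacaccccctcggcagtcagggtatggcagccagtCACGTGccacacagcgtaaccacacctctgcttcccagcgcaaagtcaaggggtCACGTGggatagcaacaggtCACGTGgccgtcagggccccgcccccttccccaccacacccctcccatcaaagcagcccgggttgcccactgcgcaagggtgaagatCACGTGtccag
Cdk6: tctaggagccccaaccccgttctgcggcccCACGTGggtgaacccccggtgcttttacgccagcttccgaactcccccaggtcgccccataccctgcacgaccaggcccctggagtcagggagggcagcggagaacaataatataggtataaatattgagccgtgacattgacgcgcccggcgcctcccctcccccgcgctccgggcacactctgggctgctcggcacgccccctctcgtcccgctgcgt
Ccnd3: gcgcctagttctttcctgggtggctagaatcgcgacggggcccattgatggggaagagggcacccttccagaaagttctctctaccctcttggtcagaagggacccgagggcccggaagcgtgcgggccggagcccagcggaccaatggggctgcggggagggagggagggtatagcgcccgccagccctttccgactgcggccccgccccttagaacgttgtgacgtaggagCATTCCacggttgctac
The Cdk4 stretch is chr10:127063285-127063534, the Cdk6 stretch chr5:3343643-3343892 and the Ccnd3 stretch, before the second of its starts, chr17:47593217-47593466, all on the plus strand of GRCm38.p6. The Cdk4 window held 4 E-boxes, and 8 of all windows (0.0244%) held at least 4. The Cdk6 window held 1 E-box, and the Ccnd3 window held 1 TEAD motif, on the opposite strand to the gene. These matches are letters in a sequence and not measured binding sites, and the other windows say nothing of the factors whose letters they lack.

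**Figure D1:**
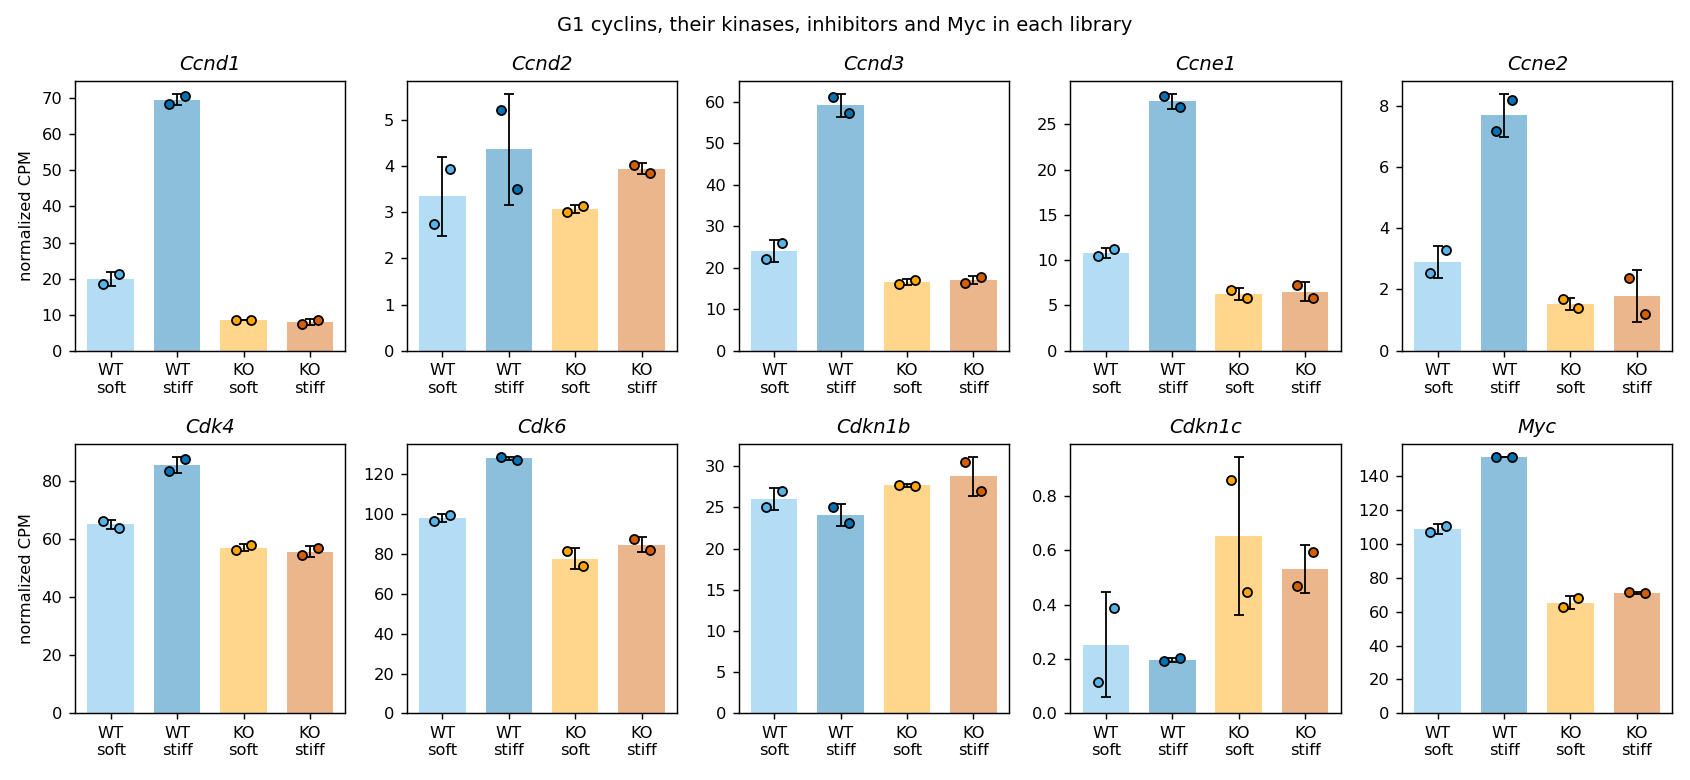
Normalized CPM (vertical axes, each from 0 and scaled to its gene) of the 10 members in the 4 groups, with bars at the mean of 2 libraries, error bars of 1 SD and a point for each library. Both WT stiff libraries stand above all others for Ccnd1 (68.6 and 70.8 CPM), Ccnd3, Ccne1, Ccne2, Cdk4, Cdk6 and Myc, whereas the groups are close for Ccnd2 and Cdkn1b, and Cdkn1c stays under 1 CPM.

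On the stiff hydrogel, WT hepatocytes had more RNA for cyclins D1, D3, E1 and E2, and in KO hepatocytes none of these genes was called. A gene was called changed at a Benjamini-Hochberg adjusted p under 0.05 over all tested genes (edgeR quasi-likelihood test) together with an absolute log2 fold change over 0.5. In WT cells, 4 of the 10 members were called higher on stiff and 0 lower, beside 10.0% of all tested genes called higher and 9.26% called lower. Without adjustment 7 members were higher at p under 0.05 and 0 lower, beside 6854 of the 14279 tested genes in either direction. DESeq2 called 4 members higher and 0 lower. In KO cells, 0 members were called in either direction, where 0.0140% of all tested genes were called higher and 0.00700% lower. At an unadjusted p under 0.05, 2 members were higher in KO cells (Cdk6 and Myc), beside 1077 of all tested genes in either direction, and DESeq2 called 0 members. These 2 differences, both 0.12, ranged from 0.049 to 0.19 for Cdk6 and from 0.056 to 0.18 for Myc when single libraries were left out, with the lowest value without KO soft replicate 2 and KO soft replicate 1, respectively.

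The difference between these stiffness effects, tested as an interaction, was called for Ccnd1, Ccnd3, Ccne1 and Ccne2. All 4 were negative, meaning a smaller effect in KO than in WT cells, where 8.21% of all tested genes were called negative and 8.64% positive. DESeq2 called 3 of them and not Ccne2. The median log2 fold change over the members was 0.44 in WT and 0.052 in KO cells, and over all tested genes −0.0087 and 0.0076.

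On each hydrogel, the KO libraries were also below the WT libraries for Ccnd1, Ccnd3, Ccne1, Ccne2, Cdk4, Cdk6 and Myc. Ccnd2 overlapped between genotypes, and Cdkn1b and Cdkn1c were higher in the KO without being called. Since Cdkn1c passed the filter only through the KO libraries, its direction carries that selection and is not read as a result. On soft, 5 members were called lower in the KO and 0 higher (all tested genes: 4.65% lower, 2.02% higher). At an unadjusted p under 0.05, 7 were lower and 1 higher (Cdkn1c), and DESeq2 called 4 lower and 0 higher. On stiff, 7 members were called lower and 0 higher (all tested genes: 15.0% lower, 13.7% higher). At an unadjusted p under 0.05, 7 were lower and 1 higher (Cdkn1b), and DESeq2 called 7 lower and 0 higher. Of all 14279 tested genes, 4233 on soft and 8015 on stiff had an unadjusted p under 0.05 in either direction. The member medians were −0.43 on soft and −0.86 on stiff, and those of all tested genes −0.00031 and 0.011. The comparisons share libraries: each WT or KO group enters one comparison of stiffness and one of genotype, so the counts are not independent of each other. In these bulk samples, fewer cells with an RNA and less of it per cell cannot be told apart.

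**Figure D2:**
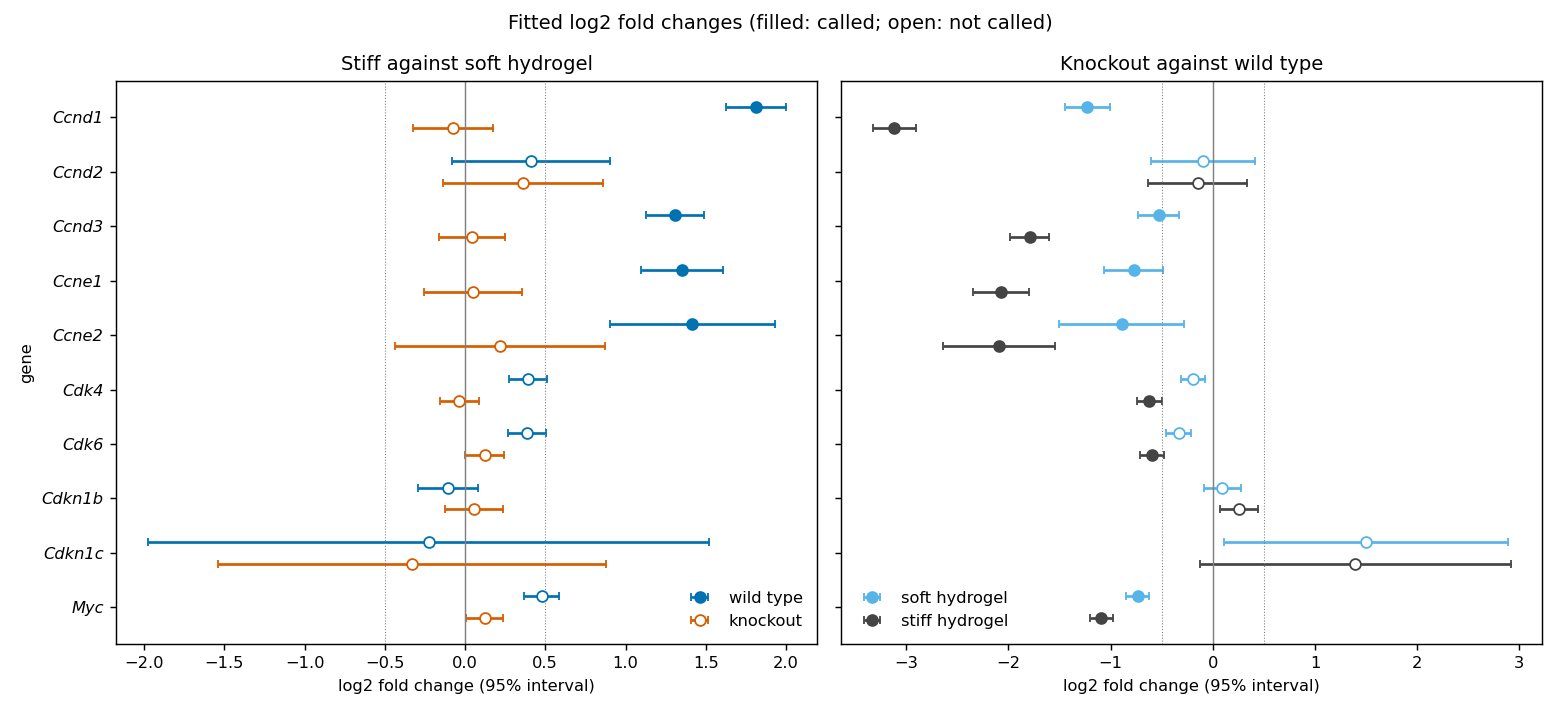
Fitted log2 fold changes of the 10 members (horizontal axes) with 95% intervals, for stiff against soft within each genotype (left) and KO against WT on each hydrogel (right), where filled points were called and dotted lines mark the fold threshold of 0.5. In WT cells Ccnd1 lies at 1.81 and Ccne2, Ccne1 and Ccnd3 between 1.31 and 1.42, whereas no KO interval on the left lies wholly past the threshold.

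Ccnd1 encodes cyclin D1, the D-type cyclin best known in liver regeneration, and was the member with the largest stiffness effect. In the deposited table it lies at chr7:144483668-144493662 on the minus strand. It was at 18.5 and 21.3 CPM in WT soft libraries and at 68.6 and 70.8 CPM in WT stiff libraries. In KO cells it was at 8.43 and 8.50 CPM on soft and at 7.45 and 8.65 CPM on stiff. The 2 WT groups did not overlap each other or the KO libraries, and the 2 KO groups overlapped.

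Ccnd1 was 3.51-fold higher on stiff than on soft in WT cells (log2 fold change 1.81, SE 0.087, edgeR adjusted p = 9.02e-12). In KO cells the difference was −0.075 (95% interval −0.32 to 0.17, adjusted p = 0.907), an interval that lies wholly below the WT estimate. The interaction was −1.89 (SE 0.15, adjusted p = 1.51e-08). The WT level exceeded the KO level 2.34-fold on soft (log2 fold change −1.23, adjusted p = 7.55e-08) and 8.66-fold on stiff (−3.11, adjusted p = 1.02e-14), and each of these 4 calls was kept when any 1 library was left out.

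Ccnd3 encodes cyclin D3 and followed the same order with a smaller span (chr17:47815976-47910616, plus strand). It was at 22.1 and 25.9 CPM in WT soft, 61.1 and 57.2 CPM in WT stiff, 16.1 and 17.1 CPM in KO soft, and 16.4 and 17.8 CPM in KO stiff libraries. The WT stiff libraries were the highest, the WT soft libraries came next, and the KO groups overlapped. It was 2.47-fold higher on stiff in WT cells (log2 fold change 1.31, SE 0.086, edgeR adjusted p = 6.83e-10) and differed by 0.044 in KO cells (95% interval −0.16 to 0.25). The interaction was −1.26 (SE 0.13, adjusted p = 5.86e-07).

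The genotype difference of Ccnd3 was −1.79 on stiff (edgeR adjusted p = 6.98e-12). On soft it was −0.53 (adjusted p = 0.000447), close to the fold threshold. It fell under the threshold without WT soft replicate 2 (−0.42), without KO soft replicate 1 (−0.49) and when counts were scaled by library size only (−0.48).

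Ccnd2 encodes cyclin D2 and was not called in any comparison (chr6:127102125-127129156, minus strand). It was at 2.73 and 3.94 CPM in WT soft, 5.21 and 3.51 CPM in WT stiff, 3.01 and 3.13 CPM in KO soft, and 4.03 and 3.85 CPM in KO stiff libraries. The WT groups overlapped each other, and every KO library lay within the WT range. The stiffness difference was 0.41 in WT (95% interval −0.083 to 0.90, edgeR adjusted p = 0.178) and 0.36 in KO cells (−0.14 to 0.86, adjusted p = 0.717), and the interaction was −0.048 (−0.75 to 0.65). The WT difference depended on single libraries, at 0.15 and 0.097 without WT soft or WT stiff replicate 1, and at 0.68 and 0.66 without WT soft or WT stiff replicate 2. The KO against WT differences were −0.099 on soft and −0.15 on stiff, and they changed sign without WT soft replicate 2 (0.16) and without WT stiff replicate 1 (0.16), respectively. These intervals are wide, as the gene had only 63 to 108 counts per library.

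Scaled by gene length (RPKM), the D-type cyclins together rose from 6.75 and 7.90 in WT soft to 22.1 and 21.9 in WT stiff libraries, and were at 3.88 to 4.27 in the 4 KO libraries. Ccnd1 made up 57.3% and 58.3% of that sum in WT soft and 66.0% and 68.6% in WT stiff libraries, but 40.8% to 45.4% in KO libraries, where Ccnd3 made up 46.5% to 48.2%. The Ccnd1 to Ccnd3 ratio was thus 1.53 to 2.31 in the WT and 0.847 to 0.975 in the KO libraries. Which gene of the pair is higher depends on the deposited lengths, 4709 bases for Ccnd1 and 8775 for Ccnd3. Without length scaling Ccnd3 exceeded Ccnd1 in WT soft libraries too (means 24.0 and 19.9 CPM), whereas the lower ratio in the KO does not depend on length. Ccnd2 held 1.70% to 5.30% of the sum in WT and 8.09% to 11.0% in KO libraries, with no called change in its own level.

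Ccne1 encodes cyclin E1, the activator of CDK2 at the entry into S phase (chr7:37797409-37806959, minus strand). It was at 10.4 and 11.2 CPM in WT soft and 28.1 and 26.9 CPM in WT stiff libraries. The KO libraries held 6.75 and 5.82 CPM on soft and 7.26 and 5.78 CPM on stiff, so the KO groups overlapped below both WT groups. It was 2.55-fold higher on stiff in WT cells (log2 fold change 1.35, SE 0.12, edgeR adjusted p = 5.03e-08) and differed by 0.048 in KO cells (95% interval −0.26 to 0.35). The interaction was −1.30 (SE 0.19, adjusted p = 3.78e-05). The KO against WT difference was −0.77 on soft (adjusted p = 0.000429) and −2.07 on stiff (adjusted p = 1.68e-10), and all 4 of these calls were kept when any 1 library was left out.

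Ccne2 encodes cyclin E2 and had a similar pattern at a lower level (chr4:11191351-11204779, plus strand). It was at 2.54 and 3.28 CPM in WT soft, 7.18 and 8.18 CPM in WT stiff, 1.68 and 1.39 CPM in KO soft, and 2.39 and 1.19 CPM in KO stiff libraries. All WT libraries were above all KO libraries, though the second KO stiff library, with 24 counts, was far below the first with 51. The stiffness difference was 1.42 in WT cells (SE 0.24, edgeR adjusted p = 0.000129) and 0.22 in KO cells (95% interval −0.44 to 0.87). The KO against WT difference was −2.09 on stiff (adjusted p = 2.23e-06).

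The remaining 2 calls of Ccne2 were fragile. Its difference on soft, −0.89 (SE 0.29, edgeR adjusted p = 0.0390), was lost with DESeq2 (adjusted p = 0.0957), without WT soft replicate 2 (0.186), without either WT stiff replicate (0.0524 and 0.0553) and without either KO soft replicate (0.0955 and 0.179). Its interaction, −1.20 (SE 0.40, edgeR adjusted p = 0.0296), was lost with DESeq2 (adjusted p = 0.0799) and without WT soft replicate 1 (0.0853), WT stiff replicate 2 (0.0909), KO soft replicate 1 (0.134) or KO stiff replicate 2 (0.122), and the estimate without the last of these was −0.80. Per length, Ccne1 made up 80.0% to 86.5% of the E-type cyclin RPKM in every library, with no separation of the groups.

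**Figure D3:**
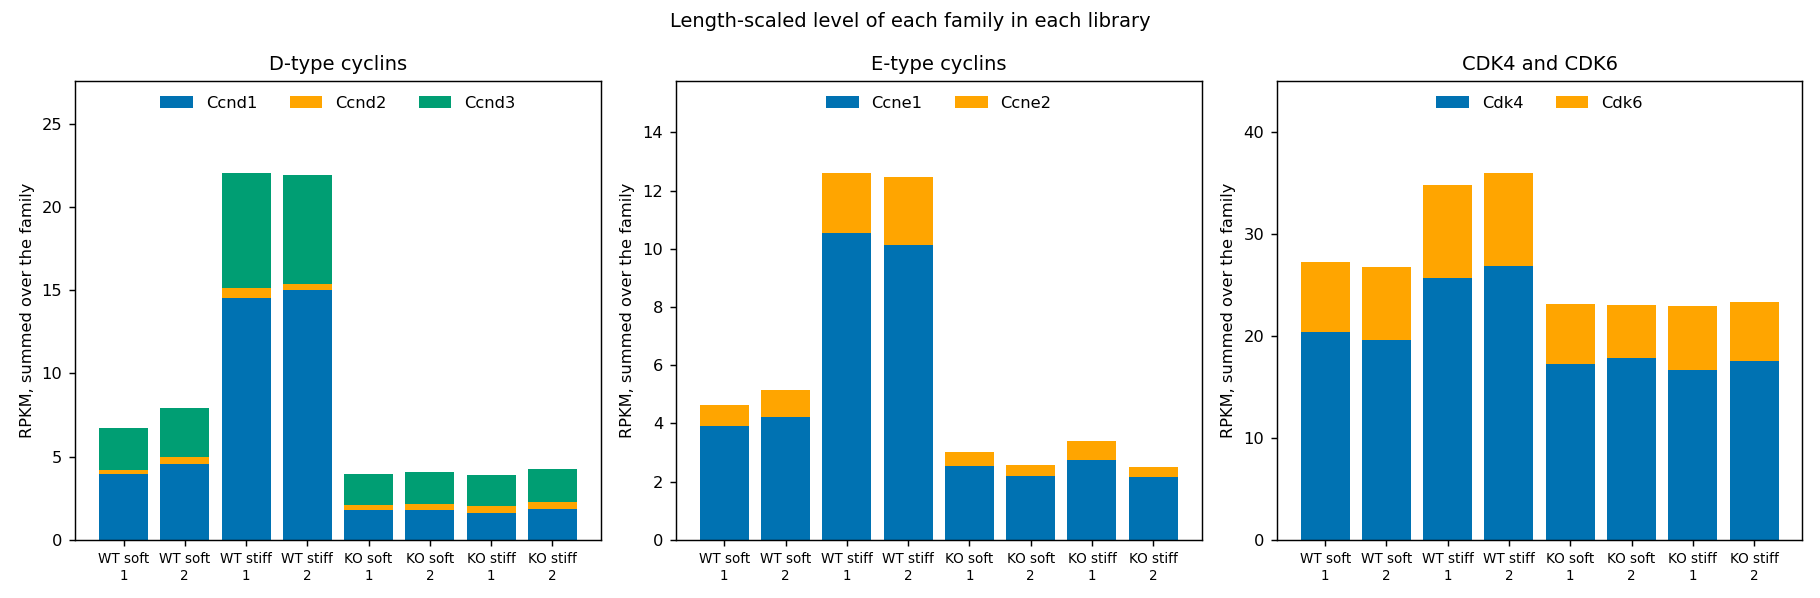
Stacked RPKM (normalized CPM per kilobase of gene, vertical axes from 0) of the D-type cyclins, the E-type cyclins, and Cdk4 with Cdk6, with 1 bar for each of the 8 libraries. The D-type cyclin bars reach 22.1 and 21.9 in WT stiff libraries and 3.88 to 4.27 in KO libraries, with a smaller part from Ccnd1 in the KO, whereas Cdk4 holds 72.8% to 77.1% of its pair in all 8 libraries.

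Cdk4 encodes a kinase partner of the D-type cyclins and missed the fold threshold in WT cells (chr10:126899403-126903789, plus strand). It was at 66.1 and 63.8 CPM in WT soft, 83.4 and 87.4 CPM in WT stiff, 56.1 and 57.8 CPM in KO soft, and 54.3 and 56.9 CPM in KO stiff libraries. The WT stiff libraries were the highest and the KO groups overlapped below WT soft. The WT stiffness difference was 0.39 (SE 0.056, edgeR adjusted p = 1.74e-05), which passed the p threshold, and the KO difference was −0.035 (95% interval −0.16 to 0.087). The KO against WT difference was called on stiff (−0.62, adjusted p = 4.16e-08) and was −0.19 on soft (adjusted p = 0.0251), and the interaction of −0.43 (adjusted p = 0.000531) was under the fold threshold.

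Cdk6, the second kinase of the D-type cyclins, had nearly the same WT difference (chr5:3391485-3581008, plus strand). It was at 96.8 and 99.6 CPM in WT soft, 129 and 127 CPM in WT stiff, 81.6 and 73.9 CPM in KO soft, and 87.3 and 82.0 CPM in KO stiff libraries. Here the KO stiff libraries were both above the KO soft libraries, by a narrow margin. The stiffness difference was 0.38 in WT (SE 0.056, edgeR adjusted p = 2.06e-05) and 0.12 in KO cells (95% interval 0.0010 to 0.24, adjusted p = 0.658), and the interaction was −0.26 (adjusted p = 0.0191), under the fold threshold. The KO against WT difference was −0.33 on soft (adjusted p = 0.000296, under the fold threshold) and −0.60 on stiff (adjusted p = 5.90e-08, called). Cdk4 held 72.8% to 77.1% of the RPKM of the pair in all 8 libraries.

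Cdkn1b encodes p27, and its RNA varied little (chr6:134897364-134902476, plus strand). It was at 25.1 and 26.9 CPM in WT soft, 25.0 and 23.1 CPM in WT stiff, 27.7 and 27.6 CPM in KO soft, and 30.4 and 27.0 CPM in KO stiff libraries. The stiff and soft libraries were barely separated in WT cells and overlapped in KO cells. The stiffness difference was −0.11 in WT (95% interval −0.29 to 0.078, edgeR adjusted p = 0.360) and 0.056 in KO cells (−0.12 to 0.24, adjusted p = 0.904). On stiff the KO was above the WT by 0.26 on the log2 scale (SE 0.088, adjusted p = 0.0209), which missed the fold threshold, and on soft by 0.092 (adjusted p = 0.524).

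The cyclins were also set against Cdkn1b in each library. The ratio of D-type cyclin RPKM to Cdkn1b RPKM was 1.23 and 1.34 in WT soft, 4.02 and 4.32 in WT stiff, 0.647 and 0.675 in KO soft, and 0.580 and 0.720 in KO stiff libraries. The E-type cyclins gave 0.844 and 0.871, 2.29 and 2.45, 0.495 and 0.427, and 0.510 and 0.423 in the same order. In each case the ratio was highest in both WT stiff libraries and lowest in all 4 KO libraries, as a ratio of RNA levels and not of proteins. The size of a ratio depends on the deposited gene lengths, so only its order over the libraries is read.

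Cdkn1c encodes p57 and was at the edge of detection (chr7:143012076-143014787, minus strand). It had 3 and 7 counts in WT soft, 4 and 4 in WT stiff, 22 and 9 in KO soft, and 10 and 12 in KO stiff libraries, or 0.116 to 0.389 CPM in WT and 0.448 to 0.859 CPM in KO libraries. Every KO library was above every WT library, but the differences did not pass the test on soft (1.50, SE 0.66, edgeR adjusted p = 0.134) or on stiff (1.39, SE 0.72, adjusted p = 0.118). The difference on soft was 0.77 and 2.47 without WT soft replicate 1 and 2, and 0.92 without KO soft replicate 1. No stiffness difference was detectable at this depth, with 95% intervals of −1.97 to 1.52 in WT and −1.54 to 0.88 in KO cells. As the gene passed the filter only through the KO libraries, its direction carries that selection.

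Myc was the member with the highest level per length in every group (chr15:61857240-61862223, plus strand). It was at 107 and 111 CPM in WT soft and at 151 CPM in both WT stiff libraries. In KO cells it was at 62.5 and 68.0 CPM on soft and at 71.2 and 70.7 CPM on stiff. All 4 groups were separated from each other, with WT stiff highest and KO soft lowest.

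The WT stiffness difference of Myc was 0.48 (SE 0.052, edgeR adjusted p = 5.79e-07), a 1.39-fold difference just under the fold threshold, and it was called (0.51) without WT soft replicate 2. In KO cells the difference was 0.12 (95% interval 0.0072 to 0.24, adjusted p = 0.639). The interaction was −0.36 (SE 0.075, adjusted p = 0.00148), again under the fold threshold. Both genotype differences were called, at −0.74 on soft (adjusted p = 1.05e-08) and −1.09 on stiff (adjusted p = 5.11e-12). For Myc the genotype difference on soft was thus larger in size than its WT stiffness difference. Ccnd1, Ccnd3, Ccne1 and Ccne2 had the reverse order, at −1.23, −0.53, −0.77 and −0.89 against 1.81, 1.31, 1.35 and 1.42. So did Cdk4 (−0.19 against 0.39) and, by a small margin, Cdk6 (−0.33 against 0.38). These orders set estimates side by side and were not tested.

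Compared per length, the mean RPKM in WT soft libraries ran from Myc (40.0) over Cdk4 (20.0), Cdk6 (7.02), Cdkn1b (5.71), Ccnd1 (4.23), Ccne1 (4.07), Ccnd3 (2.74), Ccne2 (0.832) and Ccnd2 (0.355) down to Cdkn1c (0.124), and only the neighbours Ccnd1 and Ccne1 overlapped. In WT stiff libraries Ccnd1 (14.8) and Ccne1 (10.3) had moved above Cdk6 (9.15), and Ccnd3 (6.74) above Cdkn1b (5.29), with no overlap between neighbours. In KO libraries Cdkn1b (6.07 on soft, 6.31 on stiff) instead followed Cdk4 (17.5 and 17.1), and Ccnd1 (1.80 and 1.71) came after Ccne1 (2.36 and 2.45) and Ccnd3 (1.89 and 1.95). Cdkn1b overlapped Cdk6 on stiff, and Ccnd2 overlapped Cdkn1c on soft and Ccne2 on stiff. Over all libraries, the mean RPKM of Myc exceeded that of 90.4% and that of Cdk4 83.4% of the tested genes, against 7.08% for Cdkn1c. All these orders between genes depend on the deposited gene lengths.

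The other genes of G1 to S control were read from lists chosen with earlier results of these data known, so their counts are descriptions. Over all 14279 tested genes, 10.0% were called higher and 9.26% lower on stiff in WT cells. In KO cells only 0.0140% were called higher and 0.00700% lower, so 0 calls in a list are close to that share. At an unadjusted p under 0.05 there were 6854 in WT and 1077 in KO cells, in either direction. Of 27 tested genes that control the step from G1 to S phase beside the members, 12 were called higher and 0 lower on stiff in WT cells (median log2 fold change 0.35), with 18 higher and 2 lower at an unadjusted p under 0.05 and 11 higher and 0 lower by DESeq2. The largest rises were those of E2f7 (2.23, edgeR adjusted p = 1.19e-05) and E2f8 (2.00, adjusted p = 3.43e-05), which encode atypical E2F repressors, and of Ccna2 (1.60, adjusted p = 1.72e-05), which encodes cyclin A2 of S and G2 phase. In KO cells 0 of the 27 were called (median −0.022), with 1 at an unadjusted p under 0.05 and 0 by DESeq2. The levels of the 3 named genes were low, with Ccna2 at 3.15 ± 0.77 CPM in WT soft, 9.69 ± 0.34 in WT stiff, 1.09 ± 0.34 in KO soft and 1.12 ± 0.47 in KO stiff libraries (SD, n = 2). In the same order, the means were 0.95, 4.43, 0.54 and 0.29 CPM for E2f7. Those of E2f8 were 1.51, 6.25, 0.98 and 0.73 CPM.

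Of 15 E2F target genes of S phase entry, 14 were called higher and 0 lower on stiff in WT cells (median 1.31), beside 10.0% of all tested genes called higher. The numbers of the list were the same at an unadjusted p under 0.05 and by DESeq2. Cdc6, a loading factor of the replicative helicase, differed by 2.22 (SE 0.22, edgeR adjusted p = 1.62e-07), Mcm5, a helicase subunit, by 1.99 (SE 0.089, adjusted p = 3.13e-12) and Cdc45, a helicase cofactor, by 1.98 (SE 0.29, adjusted p = 2.27e-05). Cdc6 and Cdc45 were low, with means of 2.05 and 1.34 CPM in WT soft and 9.60 and 5.36 in WT stiff libraries. Their KO means were 0.60 and 1.31 CPM on soft and 0.38 and 0.68 on stiff. In KO cells 0 of the 15 were called (median −0.019), with 1 at an unadjusted p under 0.05 and 0 by DESeq2. Of all tested genes, 0.0140% were called higher and 0.00700% lower there. Mcm5 was at 10.6 ± 1.1 CPM on soft and 11.3 ± 0.39 CPM on stiff in KO cells (SD, n = 2). The interaction was called negative for 14 of the 15 and positive for 0 (14 and 0 at an unadjusted p under 0.05, and 12 and 0 by DESeq2). Over all tested genes 8.21% were called negative and 8.64% positive, and 5562 had an unadjusted p under 0.05.

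Between stiff and soft in WT cells, genes commonly activated by Myc were called about as often as all tested genes. Of 18 tested, 2 were called higher and 0 lower on stiff in WT cells (median 0.15), beside the 10.0% of all tested genes called higher, with 10 higher and 0 lower at an unadjusted p under 0.05 and 2 and 0 by DESeq2. They were Odc1, the enzyme that starts polyamine synthesis (0.67, edgeR adjusted p = 5.34e-10), and Ldha, a subunit of lactate dehydrogenase (0.54, adjusted p = 4.07e-10). In KO cells 0 were called, with 3 lower at an unadjusted p under 0.05 and 0 by DESeq2. All tested genes gave 0.0140% called higher and 0.00700% called lower in KO cells. In the network of Myc partners and rivals, Mycl rose (0.63, adjusted p = 0.00128) and Mlxipl, which encodes the glucose-responsive factor ChREBP, fell (−1.19, adjusted p = 8.16e-11) among 12 tested genes. In KO cells 0 of the 12 were called, with 1 at an unadjusted p under 0.05 and 0 by DESeq2.

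**Figure D4:**
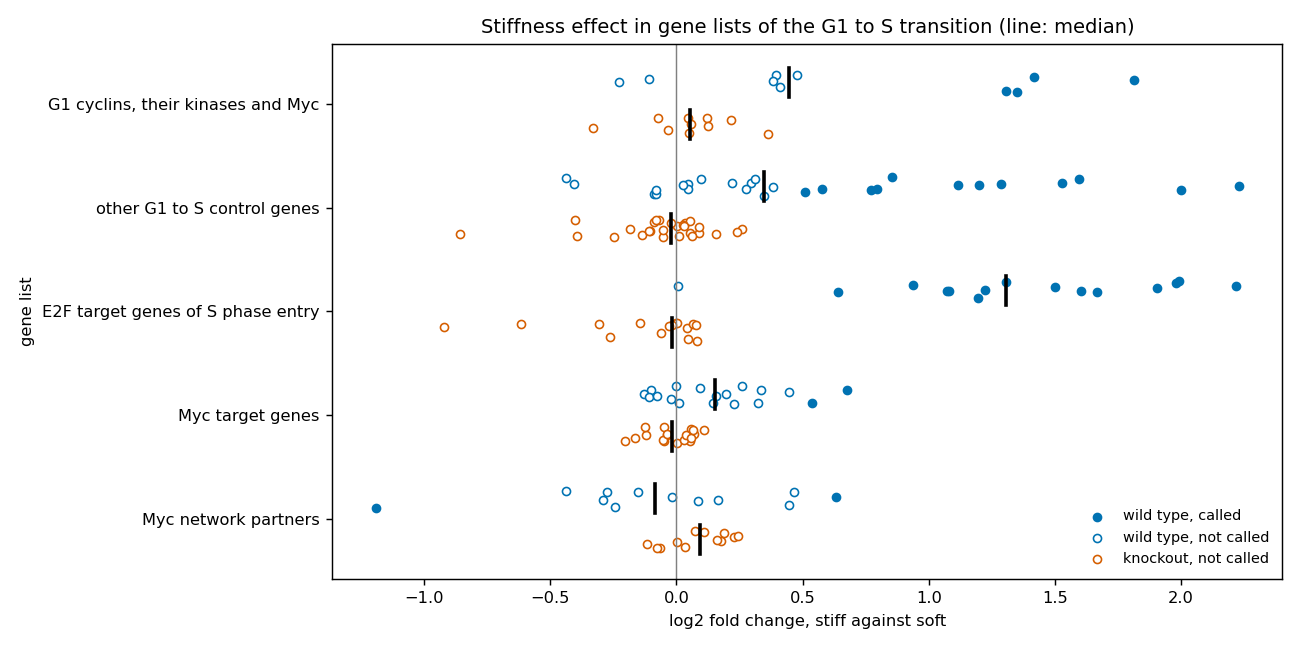
Log2 fold change on stiff against soft (horizontal axis) for each tested gene of the members and of 4 lists, in WT (blue, filled where called) and KO cells (orange, open as none was called), with a black line at each median. The WT median is 1.31 for the 15 E2F target genes, 0.44 for the 10 members and 0.15 for the 18 Myc target genes, and all 5 KO medians lie between −0.022 and 0.091.

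Genes of these lists were also called between KO and WT cells. Over all tested genes, 15.0% were called lower and 13.7% higher on stiff, and 4.65% lower and 2.02% higher on soft. An unadjusted p under 0.05 was reached by 4233 tested genes on soft and 8015 on stiff, in either direction. On stiff, 14 of the 15 E2F target genes were called lower (median −1.90). So were 14 of the 27 other G1 to S control genes (median −0.54). Of the 18 Myc target genes, 5 were called lower (Cad, Ldha, Nop56, Nop58 and Odc1, between −0.81 and −0.64, median of the list −0.25). At an unadjusted p under 0.05, 16 of these 18 were lower and 1 higher, and DESeq2 called 5 lower and 0 higher. The Myc network went both ways, with Mycl (−0.88) and Mlxip (−0.56) called lower and Mlxipl (1.65, edgeR adjusted p = 3.50e-13) called higher among 12 genes, and on soft 0 of the 12 were called, with 1 higher and 3 lower at an unadjusted p under 0.05 and 0 by DESeq2. On soft the calls were fewer, with 5 of the 15 E2F target genes (Cdc6, Orc1, Mcm3, Mcm4 and Mcm6, median of the list −0.40, with 3 called by DESeq2), 2 of the 27 control genes (E2f1 and Ccna2) and 0 of the 18 Myc target genes, although 12 of these last were lower at an unadjusted p under 0.05 (DESeq2: 0). Cdkn2b, which encodes the CDK4 and CDK6 inhibitor p15, was the only control gene called higher in the KO on stiff (0.58, edgeR adjusted p = 0.000171). The genes named in this paragraph were named after their values were seen.

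As a reference for the response of the cells, the YAP and TAZ targets Ccn1, Ccn2 and Ankrd1 differed by 1.72, 3.32 and 3.15 between stiff and soft in WT cells and by 0.016, −0.046 and −0.43 in KO cells, where the edgeR adjusted p values were 0.958, 0.924 and 0.484.

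The genes with the pattern most like each member were sought by Pearson r of log2 CPM over the 8 libraries among 10036 or 10037 other genes with a mean of at least 100 counts. The 8 points are 4 groups of 2, so that a high r mainly reflects the order of the groups, and r is given as a description. For Ccnd1 the nearest were Nabp1 (r = 0.999), Uhrf1 (0.999) and Flnc (0.999), and 1502 genes exceeded 0.9. For Ccnd3 they were Myof, Tax1bp3 and Cltb (0.999 to 0.998), for Ccne1 Loxl4, Syde1 and Myadm (0.998), and for Ccne2 Irf5, Dag1 and Rassf5 (0.991 to 0.988). For Cdk4 they were Sh3bp5, Arf4 and Pafah1b3 (0.999 to 0.996), for Cdk6 Kank2, Pacs2 and Daxx (0.998 to 0.996), and for Myc Gas6, Cd276 and Epha2 (0.999 to 0.997).

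These 7 members each shared their pattern with 1216 to 1514 genes at r over 0.9. Ccnd2 had only 12 such genes, with Dpp3, Rnpep and Tbc1d10a nearest (0.958 to 0.944), Cdkn1c had 33 (Ift172, Nfat5 and Myh14, 0.983 to 0.953), and Cdkn1b had 143 (Ficd, Cdc42bpg and Sirt7, 0.987 to 0.984).

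Other values moved with the groups. The 7 hepatocyte markers summed to 88041 to 92676 CPM in WT and 60851 to 61481 CPM in KO libraries, none of them at 0. Most of each sum was Alb, at 81923 CPM in WT soft, 86595 in WT stiff, 54977 in KO soft and 54678 in KO stiff libraries (group means, named after the values were seen). The means of Cps1 and Serpina1a were also lower in the KO than in the WT on both hydrogels, whereas those of Ttr, Tat and Hnf4a were higher. Apoa1 was lower in the KO on soft and higher on stiff. Of these 7, 0 were called higher and 2 lower on stiff in WT cells, with 1 higher and 4 lower at an unadjusted p under 0.05 and 0 and 2 by DESeq2. Over all tested genes, 10.0% were called higher and 9.26% lower in that comparison. The 6 endothelial markers summed to 51.9 to 57.3 CPM in WT soft, 36.7 and 37.1 in WT stiff, and 69.0 to 73.9 in KO libraries, and 3 of the 6 were called lower on stiff in WT cells. The 6 Kupffer cell and macrophage markers summed to 61.0 and 61.2, 43.6 and 48.0, and 83.7 to 85.0 CPM, with 2 of 6 called lower, and the 6 stellate cell and fibroblast markers to 21.4 and 22.0, 17.0 and 17.6, and 27.8 to 31.1 CPM, with 2 of 5 tested called lower and 1 higher. The sums of these non-hepatocyte lists were thus lowest in the WT stiff libraries, in which the 7 members were highest. Single genes weigh heavily in them, as Cd68 (46.2 CPM in WT soft, 35.2 in WT stiff) and Dcn (10.9 and 5.82 CPM). In WT cells the means of Ptprc (1.17 on soft, 1.30 on stiff) and Col1a1 (3.95 and 6.76) were higher on stiff, and those of the other markers of these lists lower. These genes were named after their values were seen.

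The 6 cholangiocyte markers summed to 548 and 584 CPM in WT soft, 599 and 602 in WT stiff, and 320 to 348 in KO libraries, with 1 of 4 tested, Krt19, called higher on stiff in WT cells (2.13 CPM on soft and 20.6 CPM on stiff, named after its value was seen). Most of each sum was Spp1, while Krt7 and Lrat, a stellate cell marker, did not pass the filter and Cftr was at 0 counts in all libraries. In KO cells 0 markers of any list were called between stiff and soft, with 3 genes at an unadjusted p under 0.05 over the 5 lists and 0 by DESeq2. Between KO and WT on stiff, 5 of 6 endothelial, 5 of 6 Kupffer cell and macrophage, and 4 of 5 stellate cell and fibroblast markers were called higher, with the fifth, Col1a1, called lower (−0.62, edgeR adjusted p = 0.0121, named after its value was seen). DESeq2 called 5, 4 and 3 markers of these lists higher, respectively, and 0 lower. Over all tested genes, 13.7% were called higher and 15.0% lower by edgeR in that comparison. Of the other lists, 2 of 7 hepatocyte markers were called higher and 2 lower, and 2 of 4 cholangiocyte markers lower. The part of these cell types in the members' differences was not tested.

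Some members share sequence with a gene on the opposite strand, and the strand setting of the counting is not given in the sources used here. By the reference annotation, 26.6% of 64-base windows of the Ccnd1 transcript also occur in LTO1, 16.5% of those of Ccne2 in Ints8, 29% of those of Cdk4 in Tspan31, 25.3% of those of Cdkn1c in Gm44732, and 4.96% of those of Ccnd2 in Gm43126. Ccnd3 shares 361 bases with Bysl by position and 1.19% of its windows with its pseudogene Ccnd3-ps, Cdk6 shares 0.864%, and Ccne1, Cdkn1b and Myc share none. The partners differed by 0.14 (LTO1), −0.00051 (Ints8), 0.096 (Tspan31) and 0.21 (Bysl) on the log2 scale between WT stiff and soft, and by −0.22, −0.050, −0.29 and −0.35 between KO and WT on stiff, where all 4 had the sign of the members' differences. Their mean counts per library were 296, 526, 2039 and 1026, against 550 for Ccnd1, 72.6 for Ccne2, 1403 for Cdk4 and 613 for Ccnd3, while Gm44732 and Gm43126 had 0 counts. Reads from the shared bases cannot be assigned to one strand without that setting, and their part in the members' values was not tested.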

How the data were processed

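RNA-seq of mouse primary hepatocytes was read from the deposited raw counts (8 libraries, 2 in each of 4 groups). Read pairs had been mapped by the authors with HISAT2 (2.0.5 in the submitters' processing notes) and assigned to genes by featureCounts, and the deposited values are plain counts, together with a length in bases and a position for each gene. The strand and multi-mapping settings of that counting are not given in the sources used here. The notes list mm9, the deposited table names no build, and only 2.92% of 52125 genes had the same position in the GENCODE annotation of GRCm38 used for shared sequence, so positions are printed as deposited and their build is not settled. RefSeq promoters belong to GRCm38.p6 and were matched by symbol only.

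The members and gene lists were chosen with earlier results of these data known. Genes were filtered with filterByExpr by group, scaled by TMM and fitted over all 8 libraries with edgeR 4.0.16 (glmQLFit, glmQLFTest; R 4.3.3, limma 3.58.1). This left 4 residual degrees of freedom, with a common biological coefficient of variation of 0.0542. The study's thresholds were kept, and its tool, DESeq2 (here 1.42.0), was an alternative. A normalized CPM is edgeR's CPM over tested counts after TMM scaling, and RPKM divides it by the deposited gene length. A standard error is the log2 fold change over the square root of the F statistic. The prior count for log2 CPM was 2. Replicates differed by more than sampling noise (chi-square per degree of freedom 2.62 to 5.45). Steps were tested on simulated data.

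Named were the members, Yap1, Wwtr1, up to 3 called genes with the largest rise and fall in WT stiff against soft of each list that holds no cell type markers, and the 3 genes most like each member. Cell type markers, overlapping genes and sex-linked genes named beside these, and list genes named between KO and WT, were chosen after their values were seen. 1 gene is not reported here. Figures were drawn with matplotlib 3.10.9 (Python 3.11.15). Alternatives were DESeq2, upper quartile and library size scaling, 2 other count filters, other fold thresholds, a replicate term, robust empirical Bayes, fits restricted to the 4 libraries of a comparison, and each library left out.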

Additional observations from a re-analysis of the deposited data

Results flagged for a closer look

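For 4 members the stiffness effect differed between genotypes by the test of the difference itself (edgeR interaction, adjusted p under 0.05 and absolute log2 fold change over 0.5). The effect in KO minus that in WT cells was −1.89 for Ccnd1, −1.26 for Ccnd3, −1.30 for Ccne1 and −1.20 for Ccne2 on the log2 scale. The WT libraries were higher on stiff in 2 of 2 libraries for each of these genes, and the KO groups overlapped. With 2 libraries a group, no group was large enough to be examined for single libraries far from the others.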

How the results depend on the processing

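Over the 50 fitted values of the members and all alternatives, 836 recomputed values kept their direction and their side of the thresholds, 21 lost a call, 10 gained one and 16 changed sign. The 16 changes of sign came from leaving out 1 library and concerned values that were not called. The settings with another or no fold threshold enter this tally with the main estimates, so only their calls could change. Over the left-out libraries, the stiff against soft differences in KO cells ranged from −0.19 to 0.028 (Ccnd1), −0.023 to 0.10 (Ccnd3), −0.13 to 0.19 (Ccne1), −0.38 to 0.62 (Ccne2), −0.036 to 0.13 (Cdkn1b) and −0.70 to 0.23 (Cdkn1c). Those of Cdkn1c in WT cells ranged from −0.95 to 0.75, the KO against WT differences of Ccnd2 from −0.36 to 0.16 on soft and −0.41 to 0.16 on stiff, and the interactions from −0.32 to 0.26 (Ccnd2) and −1.09 to 0.61 (Cdkn1c).

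Without a minimum fold change, 7 members were called in WT stiff against soft and 7 in the interaction, in place of 4, since Cdk4, Cdk6 and Myc then count. Of the 14279 tested genes, 5859 were then called in WT cells in place of 2754, and 4192 in the interaction in place of 2405. With an absolute log2 fold change over 1, the soft KO against WT comparison kept 1 call (Ccnd1) of 5, and leaving out single libraries gave 3 to 5 calls there, with 3 without WT soft replicate 2 or KO soft replicate 1. DESeq2 lost the Ccne2 calls on soft and in the interaction.

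The replicate numbers carry no stated pairing, and the deviations of same-numbered libraries correlated between −0.32 and 0.21 over genes. With a replicate block, the members called were 4 in WT, 0 in KO, 4 on soft, 7 on stiff and 4 in the interaction, so that the block cost the Ccne2 call on soft (adjusted p = 0.0547). Depth limits Cdkn1c, Ccnd2 and Ccne2, which had 3 to 161 counts per library.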
